A study of Homo sapiens with 6 samples.

Results

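NOX4, NOXA1 and SOD2 encode enzymes, or a partner of an enzyme, that make superoxide or hydrogen peroxide. They were chosen by gene name from the deposited count table and are 3 of its 2778 features. RNA was measured by poly(A)-selected sequencing in A375 cells, an established human melanoma line, in 3 libraries of cells overexpressing CYGB (CYGB-OE) and 3 libraries of wildtype cells (WT). Both groups were labelled as untreated and grew in the same serum-containing medium. Cytoglobin, the product of CYGB, is an oxygen-binding globin. The labels do not state the vector, an empty-vector control, or whether the overexpressing cells are 1 clone. Nor do they say that replicate libraries are from separate cultures. The p-values therefore cover the spread among these 6 libraries alone, and that spread may be technical.

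NADPH oxidases carry electrons from NADPH across a membrane to oxygen and so make superoxide. NOX4 is the catalytic subunit whose main product is hydrogen peroxide and whose activity is set largely by how much of it is made. NOXA1 is the activator protein of the related oxidase NOX1. SOD2 is the manganese superoxide dismutase of the mitochondrial matrix, which turns superoxide into hydrogen peroxide and oxygen, and its gene is a known target of the transcription factor NF-kB. The data are RNA counts: no enzyme activity and no superoxide or peroxide was measured.

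All 3 genes were lower in CYGB-OE than in WT. SOD2 was 15.8-fold lower, NOXA1 7.11-fold lower and NOX4 5.51-fold lower, and for each gene every CYGB-OE library lay below every WT library. The table is a selection: the log2 ratios of its group means left an empty band, centred here on 0 to run from -0.995 to 0.995, so the listed features differ about 2-fold or more between these same libraries. By edgeR's quasi-likelihood test at a Benjamini-Hochberg adjusted threshold of 0.05, 70.9% of the 2468 features tested were lower in CYGB-OE, 28.9% were higher, and in 70.6% all CYGB-OE values lay below all WT values. That all 3 genes are lower is therefore close to what the table holds anyway, and their place in it follows from the difference tested. Adjusted instead over all 58780 annotated genes, as if none outside the table had passed, 54.3% of the tested features were lower, and the 3 genes were still among them.

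The stretches before the main transcription starts of the 3 genes are shown because all 3 were lower in CYGB-OE, in RefSeq sequence of build GRCh38.p14, 5′ to 3′ on the gene's strand. Each was cut so that it lies before both the RefSeq start and the start of the principal GENCODE transcript, which left 250 bases for SOD2 (chr6:159693242-159693491, minus strand), 207 for NOXA1 (chr9:137423143-137423349, plus strand) and 140 for NOX4 (chr11:89491486-89491625, minus strand). RefSeq lists 4 starts for SOD2, 3 for NOX4 and 1 for NOXA1, and longer annotated SOD2 transcripts start further upstream. Capitals mark GC boxes, the letters GGGCGG. The opposite-strand form CCGCCC was searched too and occurred in none of the 3 stretches. Some boxes of SOD2 overlap.

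SOD2: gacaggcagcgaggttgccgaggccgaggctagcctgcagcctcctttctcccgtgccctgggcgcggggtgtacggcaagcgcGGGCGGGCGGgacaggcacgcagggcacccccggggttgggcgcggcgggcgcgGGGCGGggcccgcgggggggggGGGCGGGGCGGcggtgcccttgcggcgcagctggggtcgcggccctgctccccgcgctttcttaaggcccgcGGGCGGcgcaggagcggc
NOXA1: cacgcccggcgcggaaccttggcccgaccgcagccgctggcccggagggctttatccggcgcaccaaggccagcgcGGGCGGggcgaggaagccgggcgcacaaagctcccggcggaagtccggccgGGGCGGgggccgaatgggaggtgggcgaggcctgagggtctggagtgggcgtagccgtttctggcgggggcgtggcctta
NOX4: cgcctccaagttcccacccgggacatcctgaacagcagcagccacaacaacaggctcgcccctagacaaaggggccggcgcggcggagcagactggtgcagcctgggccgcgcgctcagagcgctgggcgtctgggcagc

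The SOD2 stretch held 6 GC boxes and the NOXA1 stretch 2, and the NOX4 stretch held 0. Among all 35116 RefSeq promoters cut to the same lengths, 42.6% held at least 1 box at 250 bases, 36.4% at 207 and 24.0% at 140. The cut kept the bases farthest from each RefSeq start. The nearest base kept lay 111 bases before that start at 140 and 44 at 207. At those 2 lengths the shares and medians given here therefore leave out the bases closest to the RefSeq starts. The NOX4 and NOXA1 stretches end directly before their GENCODE starts. All 3 stretches were rich in G and C, at 80.8% for SOD2, 75.4% for NOXA1 and 70.0% for NOX4. The medians over all promoters cut in this way were 58.0%, 57.5% and 56.4%. The TATA box (letters TATAAA), the AP-1 motif (letters TGANTCA) and the 10-base NF-kB motif, each searched on both strands, were not found in these stretches. At these lengths they occurred in 6.0% to 10.7%, 3.5% to 6.6% and 5.4% to 10.0% of all promoters. A match describes the letters only, and a missing match covers this window only.

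CYGB itself had normalized counts of 24020, 23160 and 23870 in CYGB-OE replicates 1 to 3, against 36.3, 37.1 and 39.3 in WT replicates 1 to 3, as the labels say. Column totals were 1533260 to 1897052 counts in CYGB-OE and 2025159 to 2801576 in WT. They are sums over the selected features and not library depths. Normalized counts here are counts divided by a library factor that puts the middle of the empty band at a log2 ratio of 0. CYGB-OE replicate 1 stood apart: the chi-square of its counts per degree of freedom was 45.6 and 49.1 against replicates 2 and 3, while those 2 differed by 4.62 and the WT pairs by 5.51 to 10.3. The pairs of a group all differed by more than sampling noise, so no library was counted as a repeat of another. In bulk RNA, fewer cells making a transcript and less transcript per cell cannot be told apart.

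NOX4 (ENSG00000086991, GENCODE 29 on GRCh38, chromosome 11, 89324356 to 89498187, minus strand, protein-coding) had 28, 60 and 76 counts in CYGB-OE replicates 1 to 3, against 261, 401 and 296 in WT replicates 1 to 3. As normalized counts these were 29.9, 67.0 and 69.1 in CYGB-OE, against 287, 317 and 315 in WT. The WT libraries lay close together, and CYGB-OE replicate 1 was the lowest of all 6, below its own group's other libraries. The mean was 55.3 ± 22.1 in CYGB-OE and 306 ± 16.6 in WT (SD, n = 3 each), and the log2 fold change was -2.46 (SE 0.28), with adjusted p = 5.93e-05 by edgeR's quasi-likelihood test. Adjusted over all annotated genes, the edgeR p was 0.00141. No exon of another annotated gene overlaps the NOX4 exons.

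NOXA1 (ENSG00000188747, chromosome 9, 137423350 to 137434406, plus strand, protein-coding) had 16, 29 and 38 counts in CYGB-OE replicates 1 to 3 and 195, 223 and 200 in WT replicates 1 to 3. The normalized counts were 17.1, 32.4 and 34.5 in CYGB-OE, against 214, 176 and 213 in WT. As with NOX4, CYGB-OE replicate 1 was the lowest library. The mean was 28.0 ± 9.52 in CYGB-OE and 201 ± 21.5 in WT (SD, n = 3 each), and the log2 fold change was -2.83 (SE 0.27; edgeR adjusted p = 2.13e-05, or 0.000507 over all annotated genes). NOXA1 shares 43 exon bases, 2.6% of its total, with ENTPD8 on the opposite strand. The sources used here do not give the strand setting of the counting.

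SOD2 (ENSG00000112096, chromosome 6, 159669057 to 159745186, minus strand, protein-coding) had 1966, 845 and 1222 counts in CYGB-OE replicates 1 to 3 and 20558, 25987 and 20931 in WT replicates 1 to 3. The normalized counts were 2097, 944 and 1111 in CYGB-OE, against 22610, 20540 and 22250 in WT. Here CYGB-OE replicate 1 was the highest of its group, the reverse of its place for NOX4 and NOXA1, and it still lay far below every WT library. The mean was 1384 ± 623 in CYGB-OE and 21800 ± 1110 in WT (SD, n = 3 each), and the log2 fold change was -3.98 (SE 0.32; edgeR adjusted p = 3.51e-05, or 0.000835 over all annotated genes). GENCODE 29 lists another protein-coding gene entry under the name SOD2 (ENSG00000285441), which shares 845 exon bases on the same strand, 5.1% of the total. WTAP on the opposite strand shares 298, or 1.8%. Both shares are of the 16.5 kb union of exons. The principal SOD2 transcript is 0.99 kb, and how many of the shared bases lie in it was not examined. Reads in the shared stretches are uncertain, and could be a larger part of the counts than of the exon bases.

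**Figure D1:**
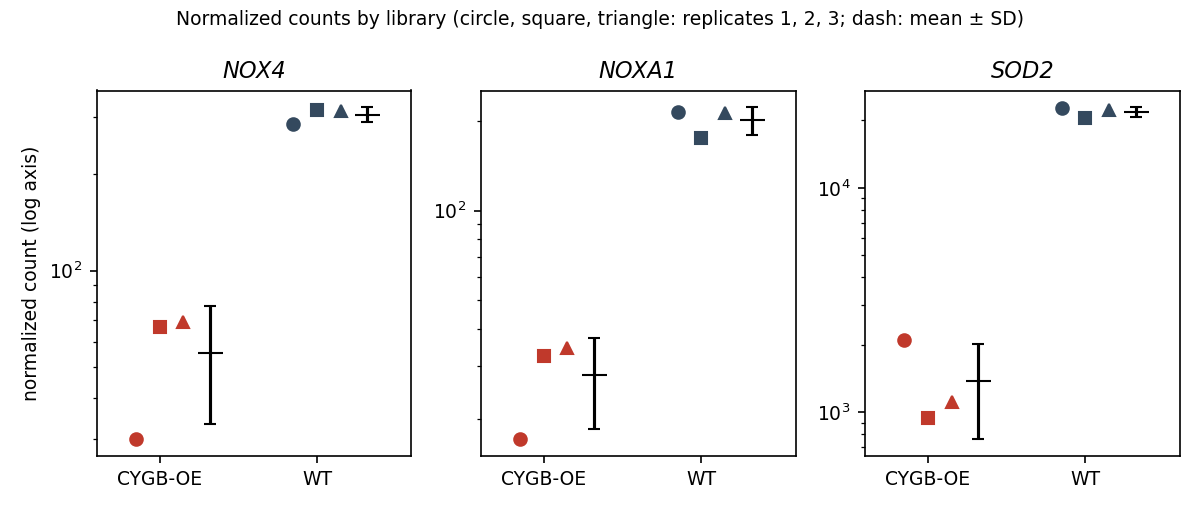
Normalized counts (log axis) of NOX4, NOXA1 and SOD2 in each library, CYGB-OE in red left of WT in dark blue; circle, square and triangle are replicates 1, 2 and 3, and the dash with its bar is the mean ± SD of the 3 libraries. CYGB-OE replicate 1 is the lowest point for NOX4 (29.9) and NOXA1 (17.1), but the highest of its group for SOD2 (2097).

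Of the 1749 features called lower, 52 had a larger fall than SOD2, which is 2.97% of them, 177 (10.1%) a larger fall than NOXA1 and 268 (15.3%) a larger fall than NOX4. The median log2 fold change was -1.57 over the lower features and -1.29 over all features tested. Without CYGB-OE replicate 1 the log2 fold changes were -4.41 for SOD2, -2.58 for NOXA1 and -2.17 for NOX4, and leaving out each library in turn gave -4.41 to -3.77 for SOD2, -3.02 to -2.58 for NOXA1 and -2.66 to -2.17 for NOX4. The size of all 3 changes depends on the level set between the groups: TMM scaling over the whole table raises the log2 fold changes by about 1.20, and gave -2.77 for SOD2, -1.63 for NOXA1 and -1.27 for NOX4 (edgeR adjusted p = 0.000147, 0.000626 and 0.00453).

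**Figure D2:**
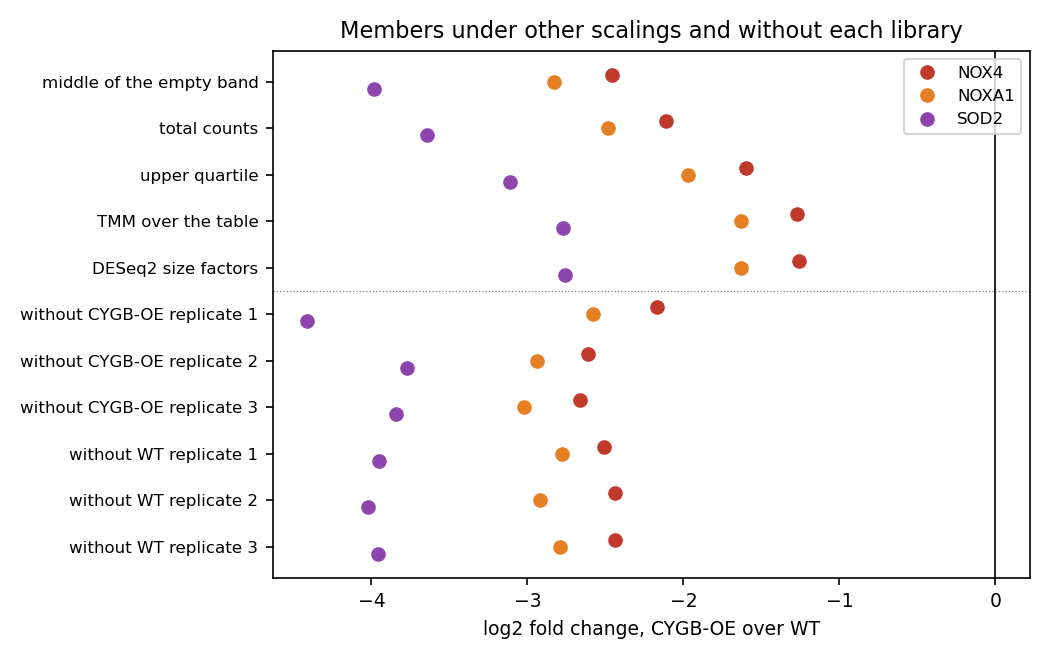
Log2 fold change of CYGB-OE over WT for NOX4 (red), NOXA1 (orange) and SOD2 (purple) under the band scaling, under 4 other scalings (above the dotted line) and without each library in turn (below it). All points lie left of 0 and keep the order SOD2, NOXA1, NOX4, with SOD2 between -4.41 and -2.76.

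Levels were compared between the genes per kilobase of exon. On the union of annotated exons, SOD2 (16.5 kb) reached 83.9 ± 37.8 normalized counts per kb in CYGB-OE and 1320 ± 67.0 in WT. NOXA1 (1.68 kb) reached 16.7 ± 5.68 per kb in CYGB-OE and 120 ± 12.8 in WT, and NOX4 (6.1 kb) 9.07 ± 3.62 in CYGB-OE and 50.2 ± 2.73 in WT (SD, n = 3 each). SOD2 was thus the highest in all 6 libraries. The order of the other pair depended on the length taken: on the principal transcript (2.39 kb) NOX4 reached 23.2 ± 9.24 per kb in CYGB-OE and 128 ± 6.96 in WT, above NOXA1 by less than the spread between libraries. The principal SOD2 transcript is 0.99 kb, which puts SOD2 further above, at 1400 ± 630 per kb in CYGB-OE and 22000 ± 1120 in WT.

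Ratios of counts within a library do not depend on the scaling between libraries. The SOD2 count was 70.2, 14.1 and 16.1 times the NOX4 count in CYGB-OE replicates 1 to 3, against 78.8, 64.8 and 70.7 times in WT. CYGB-OE replicate 1 (exact 95% interval 48.4 to 106) lay among the WT libraries, whereas replicates 2 (10.8 to 18.6) and 3 (12.7 to 20.5) lay well below. These intervals cover counting error only. The mean log2 ratio was 4.65 ± 1.29 in CYGB-OE and 6.15 ± 0.14 in WT (SD, n = 3 each), a difference of -1.50 that did not pass (two-sided exact permutation test, p = 0.2, adjusted p = 0.3 over 3 ratios; the smallest p that 3 against 3 libraries allow is 0.1). Without CYGB-OE replicate 1 the difference was -2.24.

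The SOD2 count was 123, 29.1 and 32.2 times that of NOXA1 in CYGB-OE replicates 1 to 3, against 105, 117 and 105 times in WT. Again replicate 1 had the ratio of a WT library or above. The difference of the mean log2 ratios was -1.16 (exact permutation test, p = 0.4, adjusted p = 0.4), and -1.83 without that library. The NOXA1 count was 0.571, 0.483 and 0.5 times that of NOX4 in CYGB-OE, against 0.747, 0.556 and 0.676 times in WT. CYGB-OE replicates 2 and 3 lay below every WT library, and replicate 1 lay within the WT range. The difference of the mean log2 ratios was -0.34 (exact permutation test, p = 0.2, adjusted p = 0.3), which does not show that the ratio was alike in both groups. The interval of CYGB-OE replicate 1 was wide (0.289 to 1.09), from 16 and 28 counts. Those of CYGB-OE replicates 2 (0.299 to 0.765) and 3 (0.329 to 0.747) also reached the highest WT ratio.

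**Figure D3:**
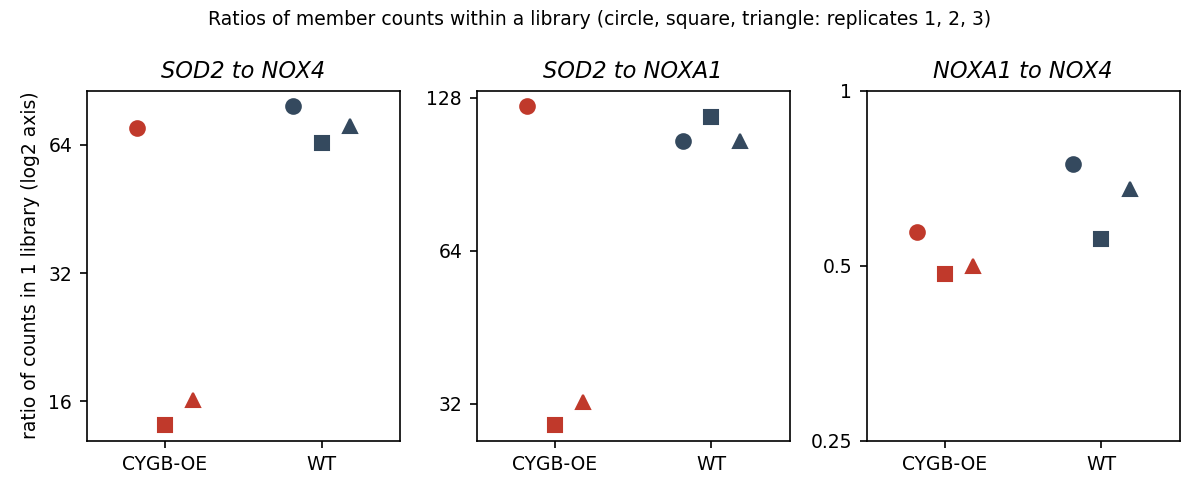
Ratio of the counts of 2 genes within each library (log2 axis), CYGB-OE in red left of WT in dark blue; circle, square and triangle are replicates 1, 2 and 3. For SOD2 to NOX4 and SOD2 to NOXA1, CYGB-OE replicate 1 (70.2 and 123) sits at the WT level while replicates 2 and 3 sit between 14.1 and 32.2.

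CYGB-OE replicate 1 differed from the mean of replicates 2 and 3 by 1.03 log2 units for SOD2, by -0.93 for NOXA1 and by -1.16 for NOX4. Over the 1749 lower features the median of this deviation was -0.09. Of those features, 90.3% had a lower deviation than SOD2, 10.8% a lower one than NOXA1 and 6.58% a lower one than NOX4, so the 3 genes lay toward opposite ends. Replicate 1 was the highest of the CYGB-OE libraries in 34.5% of the lower features and the lowest in 46.5%. CYGB did not move with this: its deviation was 0.03.

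Genes of NF-kB subunits and inhibitors moved with SOD2 in this respect. The table held 5 of the 11 listed genes. All 5 fell (median log2 fold change -2.27, against a lower share of 70.9% over the table). In all 5 replicate 1 was the highest of the CYGB-OE libraries, beside 34.5% of the 1749 lower features. It was also the highest for 4 of the 5 melanoma and melanocyte markers in the table. Whether NF-kB has a part in these changes was not tested. NFKBIA, the inhibitor IkB-alpha, had normalized counts of 2573, 595 and 569 in CYGB-OE replicates 1 to 3, against 8966, 8745 and 8787 in WT (log2 fold change -2.83, edgeR adjusted p = 0.00625). RELB, a subunit of the non-canonical arm, had 1347, 363 and 394 in CYGB-OE and 3709, 3557 and 3599 in WT (log2 fold change -2.37, edgeR adjusted p = 0.0044). NFKB2, which encodes the p100 precursor and p52, and NFKBIZ, a nuclear IkB protein, had log2 fold changes of -2.27 and -1.77, and NFKBIE, another inhibitor and the last of the 5, named here because it completes the count, had 454, 189 and 244 counts in CYGB-OE and 913, 1207 and 842 in WT. Without CYGB-OE replicate 1 the values were -3.92 for NFKBIA, -3.26 for RELB and -2.90 for NFKB2. Under TMM the edgeR adjusted p missed the threshold for NFKB2 (0.0649), NFKBIA (0.07), RELB (0.11) and NFKBIZ (0.186), as for NFKBIE. Adjusted over all annotated genes, 3 of 5 passed, and NFKBIA (0.149) and RELB (0.105) did not.

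**Figure D4:**
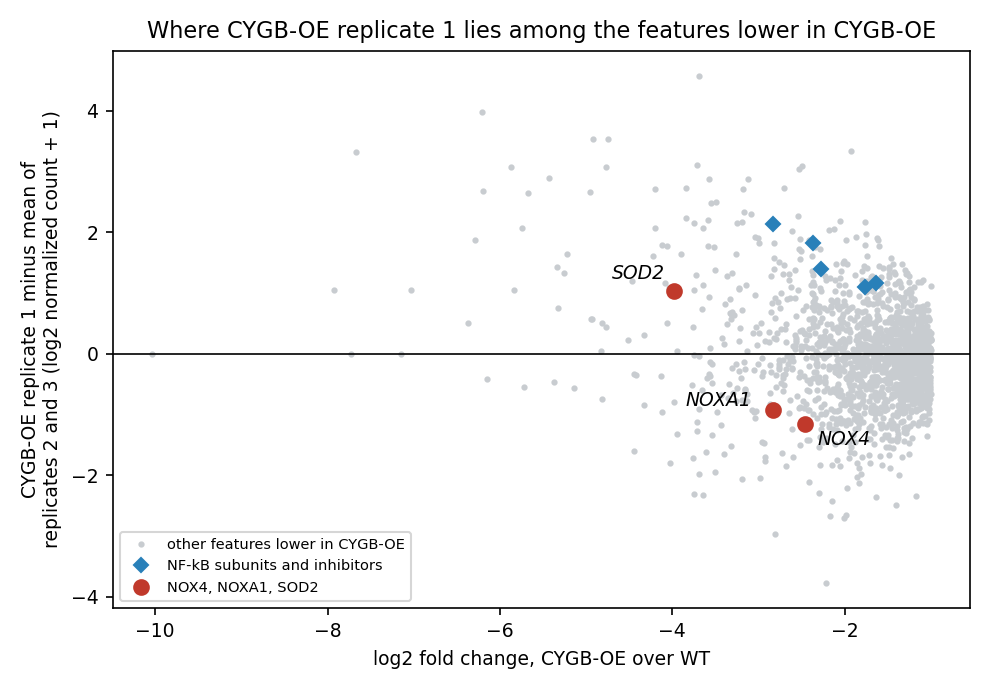
For each of the 1749 features lower in CYGB-OE, the log2 fold change (x) against the difference of CYGB-OE replicate 1 from the mean of replicates 2 and 3 in log2 normalized count + 1 (y); members are red circles, NF-kB subunits and inhibitors blue diamonds, other features grey. SOD2 (1.03) lies above 0 with the NF-kB genes, NOXA1 (-0.93) and NOX4 (-1.16) below it.

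The named genes with the closest pattern were found by the distance between mean-centred log2 normalized counts over the 6 libraries, among 1065 named features with a mean of at least 100. Since every feature was selected for a group difference, correlations are high throughout and are given as a description. For NOX4 they were LOXL4 (distance 0.449, Pearson r 0.997), NOXA1 itself (0.53, r 0.993), COL8A2, MTSS1 and ZSCAN18. For NOXA1 they were ZNF467 (0.443, r 0.997), SLC29A4 (0.459, r 0.993), COL8A2, NOX4 and PLD1. For SOD2 they were the cytokine subunit EBI3 (0.523, r 0.995), the transcription factor CEBPD (0.646, r 0.995), the chemokine CCL20, the proteoglycan ACAN and the receptor IL18R1. SOD2 lay at distances of 2.6 from NOX4 and 2.19 from NOXA1, several times the distance between that pair.

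Other genes that make superoxide or peroxide also differed, mostly downward, as did the table. The lists of NADPH oxidase subunits, dismutases and other releasing enzymes hold 62 genes, 17 of them in the table. Among the 16 that could be tested, 13 fell and 3 rose, beside 70.9% lower and 28.9% higher over all features tested. The median log2 fold change of the 16 was -1.72, against -1.29 over all features tested. NOX4 was the only one of 7 catalytic NADPH oxidase subunits there, and SOD2 the only one of 4 dismutase genes including their copper chaperone. The others were not analysed here. NOXA1 and DUOXA1, a maturation factor of the dual oxidases, were those of 15 partner genes; DUOXA1 had 1 count in each CYGB-OE library against 13, 12 and 13 in WT, and was too low to be tested. TMM over the table called 5 lower, namely the 3 genes described above, LOXL4 and CYP1B1, and called 3 higher. Adjusted over all annotated genes, 12 were lower and 1 was higher.

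Among the other enzymes that release peroxide, LOXL4, a lysyl oxidase of the matrix, had normalized counts of 1983, 4831 and 4583 in CYGB-OE replicates 1 to 3 and 16120, 16580 and 15820 in WT (log2 fold change -2.09, SE 0.32; edgeR adjusted p = 0.000666). As with NOX4, its replicate 1 was the lowest. The amine oxidases of the mitochondrial outer membrane both fell, with CYGB-OE replicate 1 the highest of its group for MAOB and the lowest for MAOA. MAOB had 73.6, 36.9 and 26.4 in CYGB-OE, against 183, 194 and 210 in WT (log2 fold change -2.11). MAOA had 146, 252 and 241 in CYGB-OE, against 435, 537 and 425 in WT (log2 fold change -1.13). PAOX, which oxidizes acetylated polyamines, and IL4I1, a secreted amino acid oxidase, had log2 fold changes of -2.41 and -2.53; for IL4I1 the value was -4.57 without CYGB-OE replicate 1, and its call was lost over all annotated genes (edgeR adjusted p = 0.248). ERO1B, which passes electrons to oxygen during disulfide formation in the endoplasmic reticulum, had -1.25, and DDO, the peroxisomal aspartate oxidase, -1.01. The cytochromes P450 CYP1B1, CYP2E1 and CYP1A1, which can leak peroxide during catalysis, had -2.74, -1.35 and -1.15. Under TMM and under DESeq2 size factors over the table, MAOA, DDO and CYP1A1 turned positive, by at most 0.19, and MAOB, PAOX, IL4I1, ERO1B and CYP2E1 stayed below 0 without passing.

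The 3 that rose were XDH, AOC3 and NOS1. XDH, xanthine dehydrogenase, whose oxidase form makes superoxide and peroxide in purine breakdown, had normalized counts of 67.2, 111 and 71.8 in CYGB-OE, against 27.5, 24.5 and 20.2 in WT (log2 fold change 1.78, SE 0.29; edgeR adjusted p = 0.000376). AOC3, a copper amine oxidase of the cell surface, had 75.7, 40.2 and 26.4 in CYGB-OE, against 14.3, 14.2 and 11.7 in WT (log2 fold change 1.80). NOS1, the neuronal nitric oxide synthase, had 14.9, 72.6 and 60.9 in CYGB-OE, against 3.3, 3.95 and 10.6 in WT (log2 fold change 3.06, or 3.71 without WT replicate 3). Adjusted over all annotated genes, AOC3 (edgeR adjusted p = 0.0733) and NOS1 (0.0592) lost their calls and XDH kept it (0.00895).

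**Figure D5:**
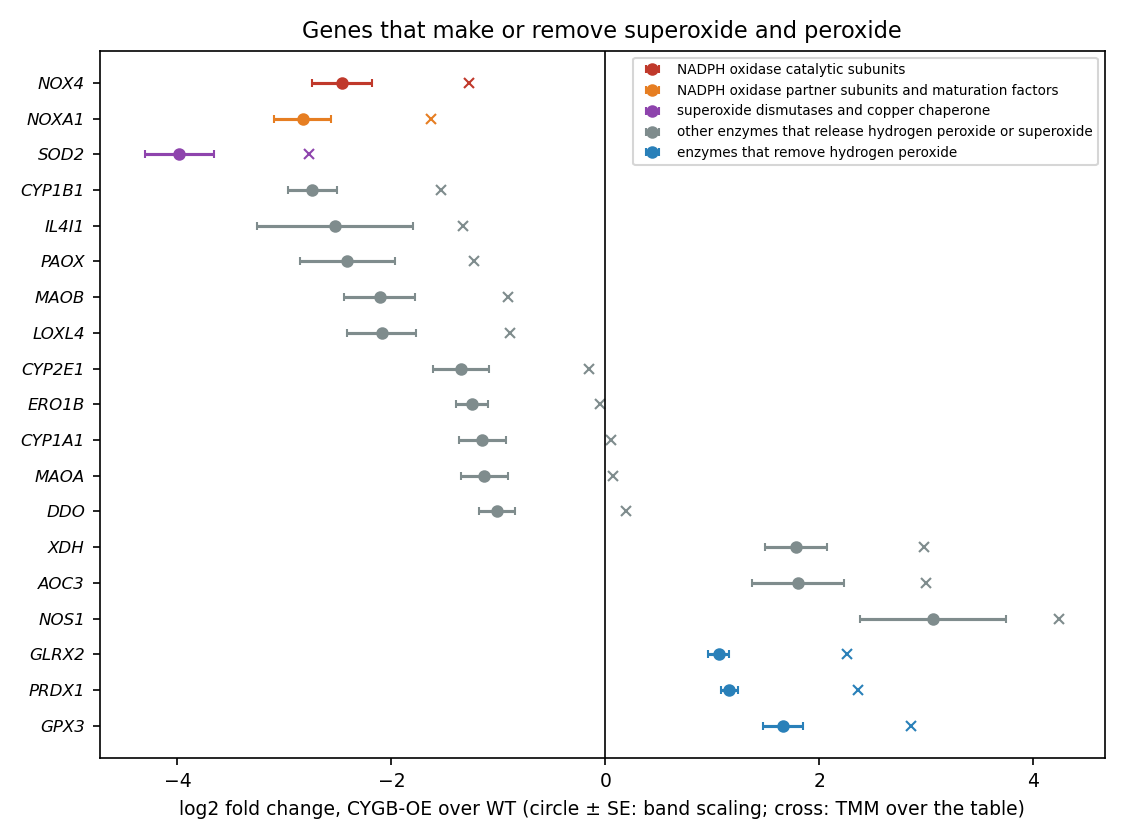
Log2 fold change of CYGB-OE over WT (circle, with its SE) of each tested gene that makes or removes superoxide or peroxide, coloured by list; crosses give the same gene under TMM over the table, which shifts all genes to the right by about 1.20. NOX4, NOXA1 and SOD2 lie below -1 under both scalings. The peroxidases PRDX1 and GPX3 and the glutaredoxin GLRX2, from the list of enzymes that remove peroxide, lie above 1.

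Of 26 genes on the list of enzymes that remove peroxide, 3 were in the table and all 3 rose, where 28.9% of all features tested were higher and nearly all passed in one direction or the other. PRDX1, a peroxiredoxin, had 22060, 20470 and 20880 normalized counts in CYGB-OE, against 9475, 9669 and 9222 in WT (log2 fold change 1.16, SE 0.08; edgeR adjusted p = 5.23e-06). GPX3, the secreted glutathione peroxidase, and GLRX2, a mitochondrial glutaredoxin, had log2 fold changes of 1.66 and 1.06. GLRX2 is on the list but is not a peroxidase. Of 20 genes of complexes I and III of the respiratory chain, the mitochondrial source of superoxide, 2 were in the table. MT-ND2 had a log2 fold change of 1.09, and NDUFB8 of -1.08, although TMM gave 0.12 for NDUFB8 and DESeq2 size factors 0.13.

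NOX4 is known as a target of TGF-beta. Of 12 other TGF-beta targets, 5 were in the table. Of these, 3 were higher and 2 lower, beside 28.9% higher and 70.9% lower over all features tested. Whether TGF-beta signalling differed was not tested. ACTA2, smooth muscle actin, had 126, 268 and 275 normalized counts in CYGB-OE, against 939, 883 and 869 in WT (log2 fold change -2.01, edgeR adjusted p = 0.000225). INHBA, the activin A subunit, had a log2 fold change of -2.37, or -3.13 without CYGB-OE replicate 1, and missed the threshold over all annotated genes (edgeR adjusted p = 0.0916). CTGF and CYR61, matricellular proteins, had 1.20 and 1.02, with WT replicate 2 the highest WT library for both, and 1.77 and 1.56 without it. The CTGF call was lost without CYGB-OE replicate 1 (edgeR adjusted p = 0.099), and the CYR61 call without CYGB-OE replicates 1, 2 or 3 or WT replicates 1 or 3 (edgeR adjusted p = 0.103, 0.0522, 0.0635, 0.0626 and 0.0574). COL1A2, a collagen I chain, had 34, 139 and 190 counts in CYGB-OE and 0, 4 and 2 in WT.

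Marker genes of the cell line and of other cell types were read beside these results. Of 11 melanoma and melanocyte markers, the table held 5. The 4 with enough counts were lower, beside 70.9% of all features tested. Among them, EDNRB, the endothelin receptor of melanocytes, had 698, 630 and 583 normalized counts in CYGB-OE and 1697, 1856 and 1860 in WT (log2 fold change -1.50). S100A1 had -1.11, but 0.09 under TMM and 0.10 under DESeq2 size factors, RAB38 had -1.42, and TYRP1, a pigment enzyme, was near the count limit with 8, 3 and 1 counts in CYGB-OE and 25, 17 and 32 in WT. DCT, another pigment enzyme, had 0 counts in all CYGB-OE libraries and 2, 13 and 15 in WT. Under TMM the adjusted p of the 4 were 0.056 for EDNRB, 0.119 for TYRP1, 0.25 for RAB38 and 0.555 for S100A1 (edgeR). The summed level of the 5 was 2830 to 3320 in CYGB-OE and 6820 to 7470 in WT. S100A1 made up most of this sum, with a mean of 2021 in CYGB-OE and 4361 in WT. This sum and those below cover only features selected for a group difference, so they do not give the level of a whole marker list. Of 12 phagocyte markers, whose cells are rich in another NADPH oxidase, 2 were in the table: LYZ was higher (log2 fold change 2.49), ITGAM had 6, 0 and 0 counts in CYGB-OE against 106, 101 and 81 in WT, and their summed level was 229 to 341 in CYGB-OE and 130 to 172 in WT. Of 10 fibroblast markers, COL1A2 and COL3A1 were in the table, with a summed level of 38.4 to 193 in CYGB-OE and 1.1 to 3.95 in WT. The part of these in the members' levels was not tested.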

How the data were processed

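RNA-seq of A375 cells gave 6 libraries, 3 CYGB-OE and 3 WT, grouped by the labels. The authors' deposited table holds raw counts per feature, made with Trimmomatic 0.36, STAR 2.5.2b and featureCounts of Subread 1.5.2 on GRCh38, per the submitters' processing notes; the sources used here do not give annotation or strand setting. Every column was mapped to a sample. Of 2778 features, 2611 identifiers were found in GENCODE 29.

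The table holds only features that differ, so TMM factors were taken per group, and the offset of CYGB-OE against WT came from the middle of the empty band. This assumes that the selection was equally wide in both directions. Features were tested with edgeR's quasi-likelihood method (edgeR 4.0.16, R 4.3.3; two-sided, filterByExpr with minimum count 10, robust, group as the only term), Benjamini-Hochberg adjusted over 2468 features, threshold 0.05. Each SE is the log2 fold change over the root of F. The common biological coefficient of variation was 20.5%. Within-library ratios were compared by exact permutation. The tests were tried on simulated counts scaled by TMM, in which few features changed, equally in both directions. The band rule was tried on simulated tables cut equally wide in both directions, which is what it assumes. Neither covers the tests under band scaling on a table like this one. Alternatives were other scalings, no filter, DESeq2 1.42.0, limma-voom (limma 3.58.1), a replicate block and leaving out each library.

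Members, lists and scaling were chosen with earlier results of these data known. Genes named were the members, CYGB, listed releasing enzymes in the table, up to 4 most abundant genes of each other list, and the 5 nearest genes of each member; DCT and NFKBIE were added after their values were seen. Likeness and deviations used log2 of normalized count + 1. Totals limit precision only for low genes such as NOXA1.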

Additional observations from a re-analysis of the deposited data

How the results depend on the processing

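The 3 genes stayed lower and past the threshold in all 15 alternatives each, with log2 fold changes of -4.41 to -2.76 for SOD2, -3.02 to -1.63 for NOXA1 and -2.66 to -1.26 for NOX4. The fits that left out each library in turn called 2497 to 2567 of the table's 2778 features, so passing there was common to most features. Counts of calls depend on the scaling. TMM over the table called 1194 features in all and 480 lower, DESeq2 size factors 1190 and 476, and upper-quartile factors 1624 and 910, against 2462 and 1749 with the band. Of the listed releasing genes TMM and DESeq2 size factors each called 8, with 5 lower, and upper-quartile factors called 8 lower, against 16 and 13. Adjusted over all annotated genes, 1 listed gene was higher, against 3. Under TMM and DESeq2 size factors the log2 fold changes that changed sign were 0.07 and 0.07 for MAOA, 0.19 and 0.19 for DDO, 0.05 and 0.06 for CYP1A1, 0.12 and 0.13 for NDUFB8 and 0.09 and 0.10 for S100A1. Each of these scalings shifts all log2 fold changes upward alike (by 1.20, 1.21 and 0.86 for upper-quartile factors). Same-numbered libraries share only a number: their deviations correlated at -0.0127, -0.0689 and -0.000475. A replicate block called 712 features higher and 1750 lower, and gave log2 fold changes of -4.07 for SOD2, -2.86 for NOXA1 and -2.52 for NOX4. The ratio differences kept their sign without each library, at -2.24 to -1.08 for SOD2 to NOX4, -1.83 to -0.79 for SOD2 to NOXA1 and -0.46 to -0.25 for NOXA1 to NOX4. Depth of the libraries is unknown, since the table is partial. Of the 3 genes, NOXA1 and NOX4, with 16 to 76 counts in CYGB-OE, carry more counting error than SOD2.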
